A study of Drosophila melanogaster with 4 samples.

Results

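The genes described are 6 genes that act around the selector gene apterous in the dorsal compartment of the Drosophila wing disc: apterous (ap), Beadex (Bx), Chip (Chi), capricious (caps), tartan (trn) and Drop (Dr). They were taken as a named list, chosen by function but with earlier results of these data known, and they are 6 of 15161 genes and unnamed loci in the files. Together they have 18 of 30950 entries, an entry being the exon stretch of 1 transcript or of a set of transcripts for which reads were counted. Of the 6 genes, 5 were found by their transcript identifiers and Bx by the lengths of its introns, so values over the list are also given without Bx. RNA was sequenced in 4 libraries of wing imaginal discs from female larvae in the third instar, with 1 library for each genotype, made from 300 discs pooled out of 6 batches. In the assay libraries, labelled FH-cortoCD and RpL12-Myc, the driver sd::Gal4 (Gal4 under control of scalloped, active in the wing part of the disc) turned on a UAS transgene. That transgene was either the Corto chromodomain carrying Flag and HA tags or RPL12 with a Myc tag. The control sd::Gal4/+ carries the driver and no transgene, and the reference line w1118 carries neither. With 1 library per genotype no difference has a replicate check, and each test compares a pair of libraries, not the genotypes. RNA of whole discs was measured, so fewer dorsal cells and less RNA in each of them cannot be told apart.

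Apterous is a LIM-homeodomain transcription factor made in the dorsal cells of the wing disc, where it gives the cells their dorsal identity and sets up the boundary with ventral cells from which the wing margin grows. It works in a complex with Chip, an adaptor protein that binds LIM domains, pairs with itself and so brings Apterous molecules together on DNA. Beadex encodes dLMO, a LIM-only protein that competes with Apterous for Chip and so limits Apterous activity, and its own gene is turned on downstream of Apterous. Capricious and Tartan are membrane proteins with leucine-rich repeats that act in the affinity of dorsal cells for each other, and Drop, also called muscle segment homeobox, encodes a homeodomain protein of dorsal cells.

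The total was 43698298 counts for the FH-cortoCD-labelled library, 44736060 for the RpL12-Myc-labelled library, 35219666 for sd::Gal4/+ and 26833482 for w1118. The counts of the over-expressed genes could not settle the labels. The chromodomain transgene holds only part of corto, and only the entry of each gene with the most reads was counted. RpL12 had 29086 reads in the FH-cortoCD-labelled library and 24106 in the RpL12-Myc-labelled library, against 17429 in sd::Gal4/+. Corto had 6164 reads in the FH-cortoCD-labelled library, 7836 in the RpL12-Myc-labelled library and 7766 in sd::Gal4/+, and its log2 ratios to sd::Gal4/+ after scaling were -0.58 and -0.29, so that it was above the driver alone in neither assay. In the public record the genotype fields of these libraries are exchanged relative to their titles. The paper's lists of higher genes go with the titles for Jon25Bi, with 201 reads for the chromodomain and 627 for RPL12. Both libraries are named by their titles only, and no direction below is ascribed to 1 transgene. All 8 defining markers of the wing disc on a fixed list had reads in every library, with a summed level between 895 and 1095 CPM (counts per 1e6 counts).

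Levels were compared between genes as RPKM, the reads per kilobase of entry and per 1e6 counts of the library size scaled by the trimmed mean of M-values (TMM), taking for each gene its entry with the most reads and a 95% interval that covers counting error only. In sd::Gal4/+ ap had the highest level of the 6 genes, 105 RPKM, and trn followed with 84.7 RPKM. Dr and Chi came next with 43.6 and 42.8 RPKM, levels whose counting intervals overlapped, and caps and Bx were lowest with 24.9 and 15.0 RPKM. The order was the same in w1118, from 116 RPKM for ap to 14.3 RPKM for Bx, and Dr and Chi were again not separated.

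In both assay libraries the order differed at the top. In the FH-cortoCD-labelled library trn led with 76.7 RPKM, and the next levels, 60.8 RPKM for ap and 58.3 RPKM for Chi, had overlapping intervals. In the RpL12-Myc-labelled library trn led with 77.4 RPKM, Chi was second with 63.4 RPKM and ap came after it with 58.5 RPKM. Dr, caps and Bx had the lowest places in both, down to 11.6 and 11.1 RPKM for Bx. The lower place of ap in the assay libraries rests on the last exon, since the 5′ exons of ap stood between 103 and 109 RPKM in all 4 libraries, above trn in each. In these entries trn ranged from 76.7 to 84.7 RPKM and caps from 19.9 to 24.9 RPKM over all 4 libraries.

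**Figure D1:**
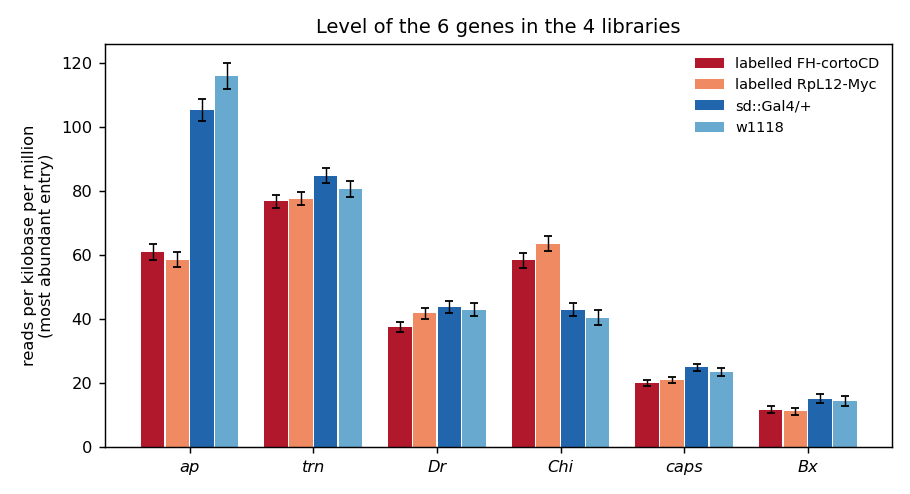
Level of each of the 6 genes, in RPKM on TMM-scaled library sizes, as bars for the 4 libraries with 95% counting intervals. The bars of ap stand at 60.8 and 58.5 in the assay libraries and at 105 and 116 in the control libraries, and those of Chi are higher in the assay libraries.

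The first comparison asked whether the selector gene itself differed between the assays and the driver alone. Ap (FBgn0267978) is a gene of chromosome 2R, read from the minus strand. Its entry with the most reads summed over the 4 libraries is the long last exon of 1905 bases, at 2R:1593707-1595611 of dm3. It leads through the control libraries, since in both assay libraries the 5′ exons had more reads, so the ratios of this exon are given beside those of the rest of the gene. This exon had 4896 and 4900 reads in the FH-cortoCD-labelled and RpL12-Myc-labelled libraries, against 7115 in sd::Gal4/+ and 6168 in w1118. Both assay libraries were low although they are the deepest, and both control libraries were high. On the TMM scale the level in the FH-cortoCD-labelled library was 0.578 times that of sd::Gal4/+, a log2 ratio of -0.79 (95% counting interval -0.87 to -0.72) with an adjusted P-value of 3.86e-194 in the binomial test of edgeR. In the RpL12-Myc-labelled library it was 0.557 times, a log2 ratio of -0.85 (-0.92 to -0.77) with an adjusted P-value of 5.90e-223 in the same test. The ratio of w1118 to sd::Gal4/+ was 0.14 on the log2 scale, in the other direction.

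The only spread between libraries without a transgene is that of w1118 against sd::Gal4/+, whose log2 ratios had an SD of 0.220 over 7171 genes with at least 100 reads in every library. Of these genes, 0.572% had a larger absolute ratio between the control libraries than ap had in the FH-cortoCD-labelled library, and 0.488% a larger one than ap had in the RpL12-Myc-labelled library. The assay libraries themselves were spread wider, with SDs of 0.478 and 0.482, and within them 8.12% and 6.54% of genes had a larger absolute ratio than ap. With the exact test of edgeR, which took its dispersion from the control libraries, the adjusted P-values of ap were 0.0117 and 0.00552. Under that test ap was the only one of the 6 genes with an adjusted P-value below 0.05 in either assay, where 9.67% and 9.81% of all genes had one, and none of the 6 had one in w1118, where 1.43% of all genes did. Against w1118 as the control the log2 ratios of ap were -0.93 and -0.98.

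The lower reads of ap came from the 3′ end of the gene. The 5′ exons of 1367 bases had 6095, 6524, 5040 and 3952 reads in the FH-cortoCD-labelled and RpL12-Myc-labelled libraries, in sd::Gal4/+ and in w1118. Scaled to library size these are 105, 109, 104 and 103 RPKM, and the log2 ratios to sd::Gal4/+ were 0.02, 0.07 and -0.01. So the assay libraries did not stand apart at this end of the gene. An exon of 212 bases within the same span had log2 ratios of 0.02 in both assays, and a first exon of 134 bases had between 4 and 15 reads. An entry of 401 bases had log2 ratios of 0.04 and 0.26. Its bases were covered to between 37.3% and 43.6%, as a mean of the 2 read files. None of these entries passed the cutoff used below.

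The 3 middle exons of 628 bases, which all 4 transcripts of their entry share, had 2848, 3090, 2095 and 1709 reads in the same order. Here the assay libraries were somewhat higher, with log2 ratios of 0.19 and 0.25, and neither passed the P-value cutoff of 4e-18 set by the study. The long last exon minus these middle exons gave a log2 difference of -0.98 (95% counting interval -1.12 to -0.85) in the FH-cortoCD-labelled library and -1.10 (-1.23 to -0.96) in the RpL12-Myc-labelled library. In w1118 the difference was 0.09 (-0.06 to 0.24), an interval that includes 0. When the reads of all entries of ap were summed, the log2 ratios were -0.28 and -0.26, smaller in size than those of the last exon alone.

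A shorter form of the last exon, of 883 bases, lies in another entry of ap, so that the last exon could be split by subtraction. The near stretch of 883 bases had log2 ratios of -0.48 and -0.45 in the FH-cortoCD-labelled and RpL12-Myc-labelled libraries and 0.06 in w1118. The far stretch of 1022 bases had 1639 and 1440 reads in the assay libraries, against 3306 in sd::Gal4/+ and 3034 in w1118. Its log2 ratios were -1.26 and -1.51 in the assay libraries and 0.22 in w1118.

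Set against the middle exons of the same library, the level of the far stretch was 35.4% and 28.6% in the assay libraries, 97.0% in sd::Gal4/+ and 109% in w1118. From the near to the far stretch the level went from 87.3 to 37.9 RPKM in the FH-cortoCD-labelled library and from 89.2 to 32.1 RPKM in the RpL12-Myc-labelled library. The control libraries also went down, but by less, from 121 to 91.1 RPKM in sd::Gal4/+ and from 127 to 106 RPKM in w1118. The reference annotation counts 1731 of the 1905 bases of the long form, and 709 of the 883 bases of the short form, as 3′ UTR, so that the far stretch is noncoding. Which of the transcript ends are in use was not tested.

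**Figure D2:**
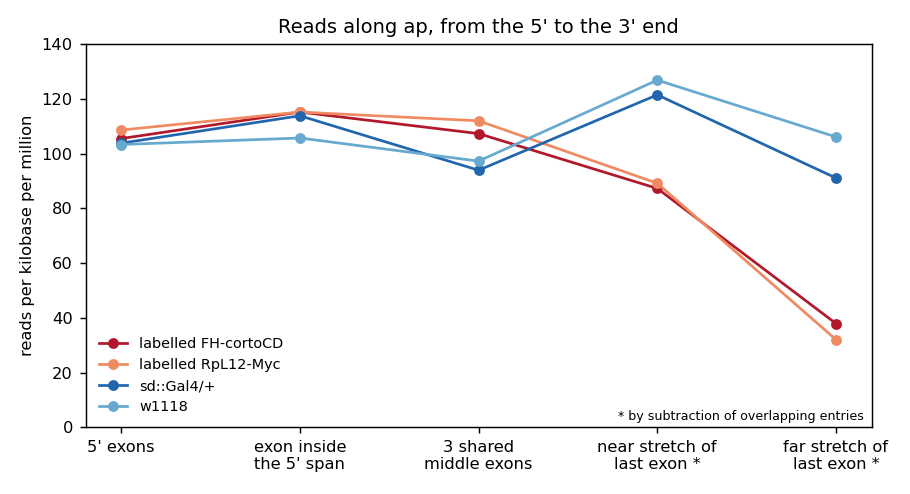
RPKM on TMM-scaled library sizes along ap, for 5 stretches from the 5′ to the 3′ end and 1 line for each of the 4 libraries, with the last exon split by subtraction of overlapping entries. The 4 lines run together from 103 to 109 at the 5′ exons. At the middle exons the assay libraries are higher, at 107 and 112 against 93.9 and 97.2 in the controls. Over the last exon the assay libraries are lower and end at 37.9 and 32.1, and the control libraries end at 91.1 and 106.

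Other genes show how far this applies beyond ap. The comparison took 1846 genes or unnamed loci with different entries nearest the 5′ and the 3′ end, each with at least 100 reads. Such entries can overlap or span most of a gene. The log2 ratio of the 3′ entry minus that of the 5′ entry had a median of -0.32 in the FH-cortoCD-labelled library and -0.32 in the RpL12-Myc-labelled library. It was below 0 in 77.7% and 72.3% of these genes. In w1118 the median was -0.01 and 53.7% lay below 0. For ap the difference was -0.81 and -0.91 in the assay libraries, and 19.7% and 17.7% of the genes had a lower one. The ratio of ap in its last exon was therefore measured in libraries whose 3′ entries were lower in most genes, and the part this has in the result was not tested.

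**Figure D3:**
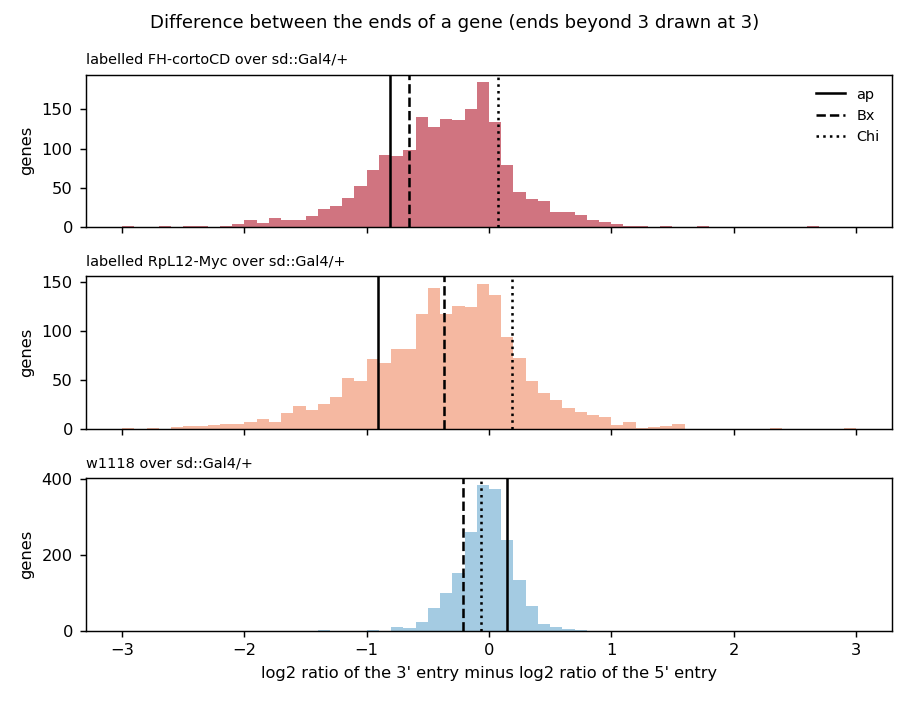
Number of genes by the difference between the log2 ratio of the 3′ entry and that of the 5′ entry, over 1846 genes and for each library over sd::Gal4/+, with ap, Bx and Chi as lines. In both assay libraries the bulk lies below 0, with a median of -0.32, and ap lies in its lower flank, whereas in w1118 the bulk is centred at -0.01.

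Chi, the adaptor that Apterous needs, was higher in both assay libraries. Its entry of 2034 bases (FBgn0013764, 2R:19919062-19921095 on the minus strand) had 5009 and 5668 reads in the FH-cortoCD-labelled and RpL12-Myc-labelled libraries, against 3095 in sd::Gal4/+ and 2290 in w1118. Both assay libraries lay above both controls after scaling. The log2 ratio was 0.44 (95% counting interval 0.35 to 0.54) with an adjusted P-value of 8.10e-41 in the FH-cortoCD-labelled library, and 0.57 (0.48 to 0.66) with an adjusted P-value of 1.08e-69 in the RpL12-Myc-labelled library, both by the binomial test of edgeR. These are 1.36-fold and 1.48-fold higher levels. In w1118 the log2 ratio was -0.09.

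The first exon of Chi, an entry of 114 bases, had 260, 271, 169 and 131 reads, and its log2 ratios were 0.37 in both assay libraries. The 3′ minus 5′ differences of Chi were 0.07 and 0.19, and 83.8% and 84.8% of the genes compared had a lower difference. Its 3′ entry is the unbroken stretch of 2034 bases. The 3′ end of Chi was therefore not measured apart, as the last exon of ap was. Between the control libraries, 2.36% and 1.10% of genes had a larger absolute ratio than Chi in the assays, and within the assays themselves 26.2% and 16.5% of genes did. With the dispersion of the control libraries in the exact test of edgeR, the adjusted P-values of Chi were 0.282 and 0.110.

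Bx, the gene of the LIM-only antagonist, had few reads, and its ends did not move alike. The entry with the most reads summed over the 4 libraries, of 1722 bases (FBgn0265598, X:18460729-18465749 on the plus strand), had 843 and 843 reads in the FH-cortoCD-labelled and RpL12-Myc-labelled libraries, 918 in sd::Gal4/+ and 688 in w1118. Scaled, the assay libraries were the lower ones, with log2 ratios of -0.37 (95% counting interval -0.57 to -0.18) and -0.43 (-0.62 to -0.23). Neither passed the cutoff.

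The first exon of Bx, an entry of 760 bases, had 926, 759, 640 and 556 reads and log2 ratios of 0.28, -0.06 and 0.14 in the FH-cortoCD-labelled and RpL12-Myc-labelled libraries and in w1118. The 3′ minus 5′ difference of Bx was -0.66 in the FH-cortoCD-labelled library and -0.37 in the RpL12-Myc-labelled library, with 27.4% and 46.8% of genes below it. Summed over its 4 entries, Bx had a log2 ratio of 0.07 in the FH-cortoCD-labelled library, so that its direction there depends on the stretch counted.

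Caps and trn, the genes of the leucine-rich repeat proteins, were both slightly lower in the assays. Caps (FBgn0023095, 3L:13221789-13272742 on the plus strand, 4631 bases of exon) had 3899 and 4235 reads in the FH-cortoCD-labelled and RpL12-Myc-labelled libraries, 4096 in sd::Gal4/+ and 3031 in w1118. The log2 ratio was -0.32 (95% counting interval -0.41 to -0.23) in the FH-cortoCD-labelled library, with an adjusted P-value of 2.21e-22 in the binomial test of edgeR, and -0.26 (-0.35 to -0.17) in the RpL12-Myc-labelled library. A second entry of caps, an exon of 213 bases, had 175, 179, 203 and 189 reads, again with the assay libraries below the controls after scaling. The share of bases of the main entry without a read was taken as the mean of the 2 read files of a library. It was 6.22% and 8.83% in the assay libraries, against 4.03% in sd::Gal4/+ and 3.88% in w1118, even though the assay libraries were deeper.

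Trn (FBgn0010452, 3L:13107373-13111188 on the plus strand, 3374 bases) had the most reads in a single entry, 10935 and 11485 in the FH-cortoCD-labelled and RpL12-Myc-labelled libraries, 10149 in sd::Gal4/+ and 7609 in w1118. Its log2 ratios were -0.14 (95% counting interval -0.20 to -0.09) and -0.13 (-0.18 to -0.07) in the assays and -0.07 (-0.13 to -0.01) in w1118. Both assay ratios were smaller in size than the SD of 0.220 between the control libraries. Between those libraries 29.7% and 34.0% of genes had a larger absolute ratio than trn had in the assays.

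Dr (FBgn0000492, 3R:25382109-25391007 on the plus strand, 2592 bases) had 4098 and 4757 reads in the FH-cortoCD-labelled and RpL12-Myc-labelled libraries, 4019 in sd::Gal4/+ and 3108 in w1118. Its log2 ratio was -0.22 (95% counting interval -0.31 to -0.13) in the FH-cortoCD-labelled library and -0.06 (-0.15 to 0.02) in the RpL12-Myc-labelled library, and neither passed the cutoff. The interval in the RpL12-Myc-labelled library includes 0, and 13.9% and 61.4% of genes had larger absolute ratios between the control libraries. Trn, Dr and the long entry of caps each count the whole transcript as 1 entry, so their ends could not be compared.

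Between the assay libraries the 6 genes differed little. The log2 ratio of the FH-cortoCD-labelled library to the RpL12-Myc-labelled library was 0.06 for ap, 0.06 for Bx, -0.12 for Chi, -0.06 for caps, -0.01 for trn and -0.16 for Dr, where the SD over 7171 genes was 0.200. Both assays are compared with the same sd::Gal4/+ library, and its own deviations enter both sets of ratios.

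A gene was called when its adjusted P-value was below 4e-18, the study's cutoff, and its absolute log2 ratio on the TMM scale above 1. The study set the same limit of 1. In its list of genes higher with the chromodomain, however, the fold changes are ratios of unscaled reads. Its calls can therefore differ from those given here. None of the 6 genes was called in the FH-cortoCD-labelled library, where 2.62% of all 15161 genes were called, in the RpL12-Myc-labelled library, where 2.59% were called, or in w1118, where 0.468% were called. At an adjusted P-value below 0.05 in the same test, with no limit on the ratio, 6, 5 and 2 of the 6 genes passed, as did 40.7%, 41.3% and 13.8% of all genes. At the cutoff of 4e-18 and any ratio, Chi was higher in the FH-cortoCD-labelled library, where 6.86% of all genes were higher, and ap and caps were lower, where 6.11% were lower. In the RpL12-Myc-labelled library Chi was higher, where 6.99% of all genes were higher, and ap was lower, where 5.92% were lower. In w1118 none of the 6 genes passed in either direction, where 0.323% of all genes were higher and 1.05% lower.

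Many of the 15161 genes have few reads, and among the 7171 genes with at least 100 reads in every library, as the 6 genes have, 13.7% were higher and 12.3% lower at that cutoff in the FH-cortoCD-labelled library, and 13.8% and 11.9% in the RpL12-Myc-labelled library. The median log2 ratio of the 6 genes was -0.27, -0.19 and -0.07 in the FH-cortoCD-labelled and RpL12-Myc-labelled libraries and in w1118, beside -0.0011, 0.015 and -0.014 over the 9313 genes with more than 3 reads in every library. Without Bx the medians were -0.22, -0.13 and -0.07. In each assay 5 of the 6 genes had a ratio below 0 and Chi had one above 0, where 4667 and 4538 of the 9313 genes were below 0. In w1118 5 of the 6 were below 0 as well, with ap above 0, where 5015 of the 9313 genes were below 0. With the exact test and the dispersion of the control libraries, 0 of the 6 genes passed the cutoff of 4e-18 in any comparison, and 0.343%, 0.508% and 0.152% of all genes did.

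**Figure D4:**
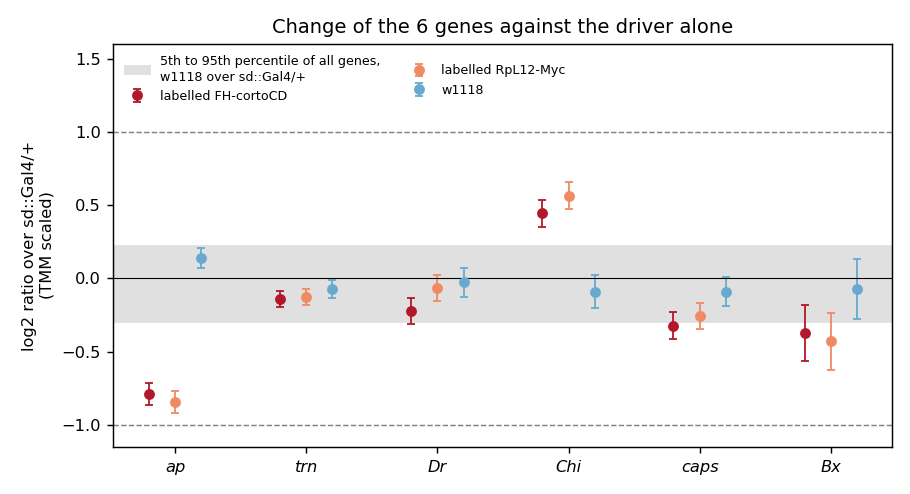
Log2 ratio of each of the 6 genes over sd::Gal4/+ in the assay libraries and in w1118, with 95% counting intervals. The grey band spans the 5th to the 95th percentile of all genes between the control libraries and the dashed lines mark the limit of 1 used for calls. Ap at -0.79 and -0.85 and Chi at 0.44 and 0.57 lie outside the band in both assays, as do Bx at -0.37 and -0.43 and, in the FH-cortoCD-labelled library, caps at -0.32, and no point passes a dashed line.

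Genes that work with these 6 were read from lists of known function. Of 9 partners of Apterous or Chip on the list, 5 had more than 3 reads in every library. Ssdp, which encodes a DNA-binding protein of the Chip complex, was called lower in both assays. It had 5978 and 5605 reads in the FH-cortoCD-labelled and RpL12-Myc-labelled libraries, against 10643 in sd::Gal4/+ and 7611 in w1118, and log2 ratios of -1.08, -1.23 and -0.14. Its 4 entries were all lower in both assays, from -0.59 to -1.08 in the FH-cortoCD-labelled library and from -0.68 to -1.23 in the RpL12-Myc-labelled library, with the entry that reaches the 3′ end lowest. Chip and Ssdp, which bind each other, thus had ratios of opposite sign.

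Osa, a gene of the Brahma chromatin remodelling complex, passed the cutoff in both assays with higher levels and log2 ratios of 0.46 and 0.38. The LIM-homeodomain gene tup had log2 ratios of 0.18 and 0.31 in its entry with the most reads, but -1.42 and -1.22 in the entry that reaches its 3′ end, so that its direction depends on the stretch counted. For pnr, which encodes a GATA factor of the notum, they were -0.29 and -0.05, and neither this gene nor the main entry of tup passed. The median over the 5 partners was -0.29 and -0.05.

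Of 9 Apterous targets and genes of the dorsoventral boundary, 8 were found and none was called on the TMM scale. The study's list of genes higher with the chromodomain does hold N, with 44071 reads against 20453 and an unscaled ratio. For fng, which encodes a glycosyltransferase that modifies Notch, the log2 ratio was -0.05 in both assays, and for Ser, a Notch ligand made by dorsal cells, it was 0.06 and 0.12. In w1118, however, fng was higher than in sd::Gal4/+ by 0.30 on the log2 scale, with an adjusted P-value of 1.20e-26 in the binomial test of edgeR.

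At the boundary, the receptor gene N was higher past the cutoff in both assays, with log2 ratios of 0.86 and 0.99 in its entry with the most reads, but its entry at the 3′ end had ratios of -1.21 and -1.40. The wing selector gene vg was lower past the cutoff, with -0.61 and -0.64. For wg, named after its values were seen, the entry at the 3′ end was lower past the cutoff, with -0.62 and -0.44, while its first entry had 0.03 and 0.16. The median over the 8 genes was 0.0046 and -0.0052.

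Of 8 further leucine-rich repeat surface proteins, 7 were found, 6 had more than 3 reads in every library and none was called. The closest in level to trn was 18w, with log2 ratios of -0.07 and -0.04, and Tollo had -0.15 and -0.14. Fili was lower past the cutoff in both assays, with -0.40 and -0.63, and Toll-7 in the RpL12-Myc-labelled library only, with -0.32 against -0.14 in the FH-cortoCD-labelled library, a difference that was not tested. The median over the 6 genes was -0.14 and -0.09, near the ratios of trn.

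**Figure D5:**
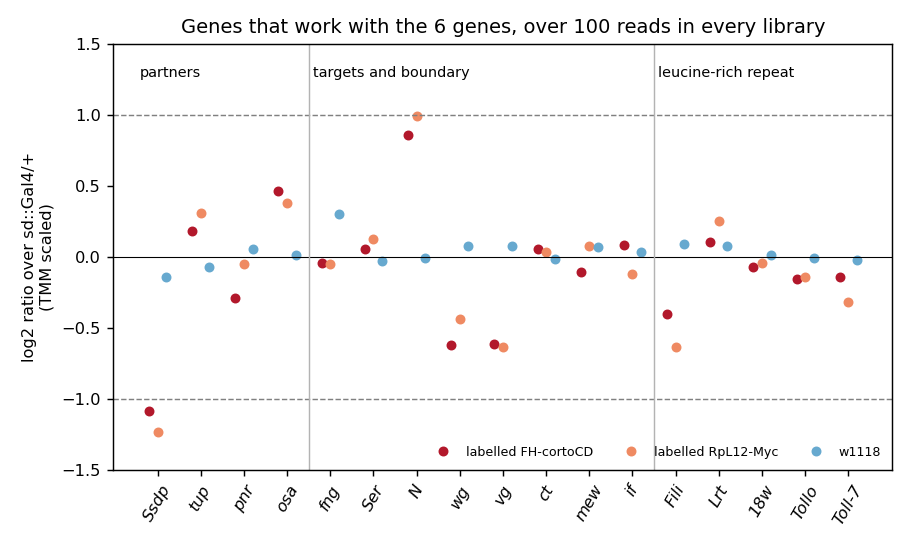
Log2 ratio over sd::Gal4/+ of the listed partners, targets and boundary genes and leucine-rich repeat genes that had over 100 reads in every library, with 1 point for each assay library and for w1118. Ssdp alone lies beyond the dashed limit of 1, at -1.08 and -1.23, while fng, Ser and 18w lie near 0 in the assays.

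The genes most like ap in their 3 log2 ratios, by Euclidean distance among 7170 other genes with at least 100 reads in all 4 libraries, were Hrb98DE at a distance of 0.0407, Lamp1 at 0.0494, CG17486 at 0.0635, CG17219 at 0.0735 and CG17162 at 0.0818. These distances use the long last exon of ap, whereas its 5′ exons had log2 ratios of 0.02, 0.07 and -0.01. Genes near to other stretches of ap were not sought. By the last exon, none of the other 5 genes of the list was near. Bx, the closest, stood at a distance of 0.624 with 889 genes nearer to ap, and Chi, the farthest, at 1.89 with 6455 genes nearer.

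Markers of other tissues also differed between the libraries. The summed level of 4 larval muscle markers was 118 and 120 CPM in the FH-cortoCD-labelled and RpL12-Myc-labelled libraries, 63.3 in sd::Gal4/+ and 68.7 in w1118. That of 4 tracheal markers was 889, 930, 668 and 668 in the same order. All 4 larval muscle markers were higher than in sd::Gal4/+ in both assays after scaling, but only 2 and 3 of the 4 tracheal markers. Among these verm alone had 25921, 27755, 15152 and 11664 reads. The 4 midgut markers summed to 20.3 and 117 CPM in the assays and to 0.0563 and 0.214 in the controls. The 5 fat body markers gave 643, 917, 1295 and 56.9 CPM, and the 4 neuronal markers 28.2, 26.3, 55.2 and 53.4. The 4 markers of blood cells gave 47.5, 62.9, 44.5 and 52.5. Within these lists the markers did not move alike. In the assays 2 and 1 of the 5 fat body markers were higher than in sd::Gal4/+ after scaling. So were 2 and 2 of the 4 neuronal markers and 1 and 3 of the 4 blood cell markers. Fbp1 had 8274, 16096, 25614 and 697 of the fat body reads. Elav had 1174, 1132, 1927 and 1484 of the neuronal reads. The summed level of the 4 markers of adult muscle precursors lay between 103 and 119 CPM and that of 5 salivary gland markers between 1.10 and 7.40. Each marker found had reads in at least 1 library, and Jon25Bi, alphaTry and betaTry of the midgut list were at 0 reads in sd::Gal4/+. The part of these tissues in the ratios of ap, Chi and the other genes was not tested.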

How the data were processed

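Pools of wing discs were sequenced as read pairs of polyadenylated RNA, 1 library per genotype. By the study's methods and the submitters' processing notes (CASAVA 1.7, Bowtie, SAMtools, edgeR 1.6.10), reads were aligned to dm3 and multiply matching reads were removed. The authors deposited whole-number counts of alignments per annotated entry for each read of the pairs, without normalization. The deposited tables further hold each count as a fraction of the alignments in transcripts, from which the number of alignments was recovered, and the number of bases not covered. Overlapping entries count a read more than once, and a strand setting for counting is not given in the sources used here, so that reads of overlapping genes on the other strand were not separated.

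Counts of both reads were summed. Entries were named from the reference annotation by transcript identifier (27902), through a shared transcript (1059) or, for Bx, by intron lengths (4 entries on X, with an intron of 31271 bases that occurs in 1 reference gene). Another unnamed locus on X, on the minus strand, also had a gap of 31271 bases. The locus taken as Bx lies on the plus strand and also matched an intron of 71 bases, a length found in 497 reference genes. 1985 entries, with 5.75% of the counts, stayed unnamed. Dl, kek1 and Sgs4 had no match. CG32105 appears in the reference as Lmx1a. Each gene was represented by its entry with the most reads summed over the 4 libraries. With edgeR 4.0.16 (R 4.3.3), a binomial test was run on 30950 entries with TMM library sizes and Benjamini-Hochberg adjustment, and was tested on simulated data. Both reads come from 1 fragment, so P-values are too small, and intervals used the number of fragments and cover counting error only. Gene levels were computed as RPKM. Summaries used Python 3.11.15 with pandas 2.3.3 and scipy 1.17.1.

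Named genes were the 6 members, RpL12 and corto, the called genes of each list with up to 4 of its genes with the highest level, and the 5 genes nearest to ap. The members and lists were chosen with earlier results of these data known. Alternatives were DESeq2 1.42.0 size factors, total counts, no scaling, other cutoffs, a minimum of 10 reads, each read alone, w1118 as control, other choices of entry and an exact test with the dispersion between the control libraries (0.0132). Chromatin immunoprecipitation and binding data were not analysed here.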

Additional observations from a re-analysis of the deposited data

How the results depend on the processing

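Over 12 alternative settings, 195 of 210 alternative ratios of single genes kept their direction and their side of the call, 10 changed sign and 5 passed once the limit on the ratio was dropped. Many of these ratios could not change. The read minimum, the exact test, the other cutoffs and the entry nearest the 3′ end left every ratio as it was. For each of the 6 genes that entry is also the one with the most reads. Where the ratio stayed and the limit of 1 was kept, no gene could be called, since no absolute ratio exceeded that limit. The number of the 6 genes called stayed at 0 except without that limit, where it was 3 in the FH-cortoCD-labelled library and 2 in the RpL12-Myc-labelled library. Without scaling to library size, as in the study's list of genes higher with the chromodomain, the difference in depth is added to every ratio. The median log2 ratio of the 6 genes was then -0.022 in the FH-cortoCD-labelled library, 0.11 in the RpL12-Myc-labelled library and -0.42 in w1118. Unscaled, trn and Dr became 0.11 and 0.028 in the FH-cortoCD-labelled library, caps, trn and Dr became 0.048, 0.18 and 0.24 in the RpL12-Myc-labelled library, and ap became -0.21 in w1118. With all entries summed, Bx was 0.070 in the FH-cortoCD-labelled library and 0.095 in w1118, and Dr was 0.0074 in w1118. With total counts, Dr was 0.021 in w1118. The cause of the sign changes at small ratios was not tested. Ap and Chi kept their directions in both assays under all 12 settings, including that with w1118 as control. The ratios of ap ran from -0.26 with all entries summed in the RpL12-Myc-labelled library to -0.98 there with w1118 as control. Every setting counted the last exon of ap, alone or within the sum. The settings therefore could not show how its direction depends on the stretch counted. In the assays its 5′ exons had log2 ratios of 0.02 and 0.07 and its middle exons 0.19 and 0.25. No paired analysis was possible because each genotype has 1 library. For the same reason no library could be left out. Ap, Chi, caps, trn and Dr each had at least 2290 reads in every library, so counting error is small for them, and the spread between libraries of 1 genotype is unknown.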
